A study of Mus musculus with 8 samples.

Results

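The genes described here are 39 mouse genes of fatty acid oxidation linked to the nuclear receptor PPAR-alpha. They were chosen by symbol, and all 39 were found among the 23282 gene rows counted in each library. By role they form an omega-oxidation arm of 4 genes, a peroxisomal arm of 11, a mitochondrial arm of 15, and a set of 9 that holds the receptor, lipid transport and other targets. The samples come from a study of whether Korean red ginseng (KRG) alters the response of liver and uterus to bisphenol A (BPA), a monomer of plastics with estrogenic activity. Female mice of the outbred CD-1 stock were ovariectomized at 6 weeks of age and then kept for 1 week before dosing, so that every group, control included, lacked ovaries. The control group (labelled OVX-control) received neither agent, and what it was given in their place is not stated in the labels. The BPA group received 200 mg/kg/day, the KRG group received 1.2 g/kg/day, and a combined group received both at these doses, all by mouth on each of 7 days. Each of the 4 groups has 1 liver and 1 uterus library, 8 in all, and whether a library holds 1 animal or several is not stated.

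PPAR-alpha is a ligand-activated transcription factor of hepatocytes that binds DNA together with the retinoid X receptor and is activated by fatty acids and by fibrate drugs. Its targets serve 3 routes of fatty acid breakdown: hydroxylation at the far (omega) end of the chain in the endoplasmic reticulum, beta-oxidation of long and dicarboxylic chains in peroxisomes, and beta-oxidation in mitochondria after transfer on carnitine. In rodent liver the Cyp4a omega-hydroxylases are among the genes most responsive to its ligands and to fasting.

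Libraries were made with a QuantSeq kit, which reads transcripts near the poly(A) tail, so that counts do not grow with transcript length. Levels are CPM, counts scaled to the total of the library's column, and 4 values in a row are those of the livers given neither agent, BPA, KRG and both, in this order. The 4 liver totals lay between 12372073 and 15290950 counts, and the ribosomal precursor Rn45s took 8.30% to 12.4% of them. Of the 39 members, 32 reached a mean of 10 CPM over the 4 livers, as did 6709 genes in all, and counts of members at least 2-fold apart refer to those 32. Since each group is a single library, replicate error is unknown, no test between 2 libraries was made, and every fold compares libraries rather than treatments. Folds are ratios of CPM with exact Clopper-Pearson 95% intervals, which cover counting error only and treat reads as independent molecules, although no molecular identifiers were used. Log2 ratios are of CPM plus 1, which understates differences of low genes. In bulk tissue, fewer cells of a type and less RNA per cell cannot be told apart.

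The livers carried the markers of their label. The 11 hepatocyte markers present in the files summed to 57170, 49449, 54846 and 56041 CPM, and none of them differed 2-fold in any of the 5 comparisons. Levels of the members in the control liver ran from 7123 CPM for Fabp1 to 0.131 CPM for Pdk4. The members under the filter were Cyp4a12a, Ehhadh, Acot2, Vnn1, Slc22a5, Fgf21 and Pdk4. Ehhadh, the peroxisomal bifunctional enzyme, lay between 2.06 and 4.09 CPM, and Vnn1, a pantetheinase, between 1.21 and 1.99 CPM. Fgf21, a hormone that fasting induces in liver through PPAR-alpha, gave 3, 1, 1 and 0 counts. Pdk4, a kinase that restrains pyruvate oxidation in fasting, gave 2, 3, 2 and 1 counts. No difference between livers was detectable for these last 2 genes at this depth.

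**Figure D1:**
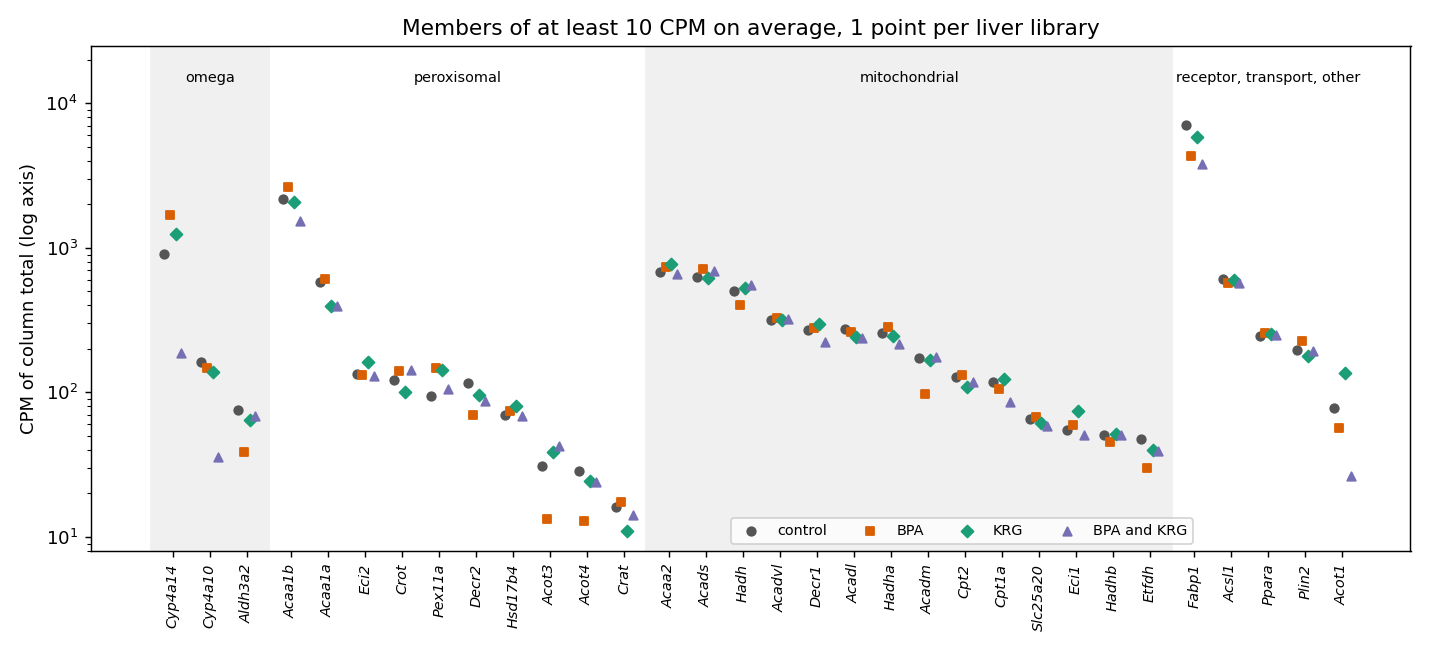
CPM of the column total (log axis) of the 32 members with a mean of at least 10 CPM, 1 point per liver library, ordered within each arm by mean level. Fabp1 stands highest in the control liver at 7123 CPM, the combined liver lies apart for Cyp4a14 (187 CPM) and Cyp4a10 (35.8 CPM), and the 4 livers nearly coincide for Acadvl and Ppara.

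Promoter sequences were matched to describe what the members share beyond their names. RefSeq promoter windows on GRCm38.p6 (250 bases before to 50 bases after the start) were found for 31 of the 39 members, giving 33 windows. Cyp4a10, Cyp4a12a, Cyp4a14, Crat, Hsd17b4, Acaa2, Decr1 and Vnn1 had no window and were not searched. The motif searched was AGGTCA followed by 1 base of any kind and AGGTCA again, the direct repeat to which PPAR-alpha and its partner bind, with at most 2 mismatches and on either strand. It was present in 4 of the 33 windows (12.1%), against 3.86% of all 32851 promoters of that length. The 4 were Fabp1, the liver fatty acid carrier with 1 mismatch, and Plin2, Acot4 and Slc25a20 with 2. A match is a description of letters and not a binding site. The upstream parts of the windows are printed for 3 of them because their genes differ in pattern below, with the match in capitals, and for Acot1, a neighbour of Acot4 on chromosome 12 with no match in its window. They lie at chr6:71199629-71199826 on the plus strand (Fabp1), chr4:86670061-86670309 on the minus strand (Plin2), chr12:84038129-84038378 on the plus strand (Acot4) and chr12:84009252-84009489 on the plus strand (Acot1).
Fabp1: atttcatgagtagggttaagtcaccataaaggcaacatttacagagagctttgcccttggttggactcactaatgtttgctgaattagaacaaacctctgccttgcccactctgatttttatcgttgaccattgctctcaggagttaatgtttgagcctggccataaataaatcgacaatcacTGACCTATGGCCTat
Plin2: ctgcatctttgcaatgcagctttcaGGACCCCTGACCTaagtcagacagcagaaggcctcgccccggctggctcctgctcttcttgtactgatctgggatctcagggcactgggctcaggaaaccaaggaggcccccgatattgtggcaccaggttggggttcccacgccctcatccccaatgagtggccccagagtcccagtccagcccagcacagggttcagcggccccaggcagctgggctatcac
Acot4: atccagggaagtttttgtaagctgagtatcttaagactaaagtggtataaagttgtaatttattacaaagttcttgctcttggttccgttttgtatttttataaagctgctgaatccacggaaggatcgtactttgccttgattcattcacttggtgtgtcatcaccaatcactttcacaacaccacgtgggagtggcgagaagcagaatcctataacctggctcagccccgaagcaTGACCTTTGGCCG
Acot1: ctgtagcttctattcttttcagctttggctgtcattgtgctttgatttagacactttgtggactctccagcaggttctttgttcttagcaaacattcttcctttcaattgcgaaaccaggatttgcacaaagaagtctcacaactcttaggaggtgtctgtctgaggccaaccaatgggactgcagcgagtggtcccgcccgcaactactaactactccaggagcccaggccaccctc
In Slc25a20, the mitochondrial carnitine carrier, the match AGGTGAAAGGTCG began 7 bases after the start. The capitals begin 67 bases before the RefSeq start in Fabp1, 13 bases before it in Acot4 and 225 bases before it in Plin2.

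Of the 32 members, Cyp4a14 of the omega arm had the widest range between livers (3.18 on the log2 scale), followed by Acot1 (2.32), described further on, and Cyp4a10 of the omega arm (2.15). Cyp4a14, which hydroxylates fatty acids at the omega end, was at 905, 1702, 1243 and 187 CPM. The combined liver was the lowest of the 4 and the BPA liver the highest. With BPA it was 1.88-fold (95% counting interval 1.84 to 1.92) above control, and with KRG 1.37-fold (1.34 to 1.40). In the combined liver it was 9.11-fold (8.73 to 9.51) lower than with BPA, 6.65-fold (6.37 to 6.95) lower than with KRG and 4.84-fold (4.63 to 5.06) lower than in control. These comparisons share libraries and are not independent of each other.

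Cyp4a10, an omega-hydroxylase encoded near Cyp4a14 on chromosome 4, was at 162, 148, 139 and 35.8 CPM. The 3 other livers lay close together, and only the combined liver stood apart from them. It was 4.15-fold (3.74 to 4.61) lower than with BPA, 3.87-fold (3.49 to 4.30) lower than with KRG and 4.53-fold (4.09 to 5.02) lower than in control. The ratio of Cyp4a14 to Cyp4a10 was 5.58 in control and 5.22 in the combined liver, against 11.5 with BPA and 8.96 with KRG. Both genes were therefore low by a like factor in the combined liver relative to control, while Cyp4a14 alone of the 2 stood above control in the livers given 1 agent.

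Cyp4a12a, the omega-hydroxylase of the same cluster known for higher levels in males, was under the filter and gave 32, 329, 39 and 0 counts, or 2.09, 25.4, 2.67 and 0 CPM. Its level with BPA was 12.1 times that in control (8.42 to 18.0). Against the 3 counts that a count of 0 allows, it was at least 104.6-fold lower in the combined liver than with BPA, at least 11-fold lower than with KRG and at least 8.63-fold lower than in control. Cyp4a12a is also known in kidney, and the 7 proximal tubule markers summed to 3.66, 4.01, 4.32 and 3.15 CPM, with Slc34a1, Kap and Slc22a12 at 0 in all 4 livers. The part of kidney RNA in these values of Cyp4a12a was not tested. Transcript ends were the last 500 bases of a GENCODE transcript for each gene, the annotated principal one where marked, ties settled by genomic span. The end of Cyp4a12a shares 37.0% of its 50-base windows with Cyp4a12b, so its value may include reads of that copy. The corresponding share was 5.99% for Cyp4a10, with Cyp4a31, and 0 for Cyp4a14. Cyp4a31 (3.47, 2.39, 0.685 and 0 CPM) and Cyp4a32 (0.916, 0.540, 2.47 and 0 CPM) were also at 0 in the combined liver. The end of Cyp4a32 shares 66.7% of its windows with other transcripts, 55.7% with Cyp4a10, so its reads may be split with that gene.

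Aldh3a2, the microsomal dehydrogenase that oxidizes fatty aldehydes, had a different order, at 76.0, 38.5, 64.8 and 68.8 CPM. Its BPA liver was the low one, 1.97-fold (1.77 to 2.19) lower than control, and the combined liver was 1.78-fold (1.60 to 2.00) higher than with BPA. Within the omega arm the hydroxylases and the dehydrogenase thus had their low values in different livers.

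Genes of the peroxisomal arm did not share 1 pattern: some were low in the livers given KRG and others in the BPA liver. Acaa1b, a peroxisomal 3-ketoacyl-CoA thiolase and the most abundant member of the arm, was at 2176, 2637, 2068 and 1545 CPM. It was highest with BPA and lowest in the combined liver, which was 1.71-fold (1.68 to 1.74) lower than with BPA and 1.41-fold (1.38 to 1.43) lower than control. Its close relative Acaa1a was at 581, 607, 395 and 394 CPM, low in both livers given KRG and 1.47-fold (1.42 to 1.52) lower in each of them than in control. The ends of the 2 thiolase transcripts share 38.8% to 42.1% of their 50-base windows, so the split of reads between them is uncertain. Crat, a carnitine acetyltransferase of peroxisomes and mitochondria, was also lower in both livers given KRG, at 16.2, 17.6, 10.97 and 14.1 CPM.

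Acot3 and Acot4, peroxisomal thioesterases that release fatty acids from coenzyme A, were low in the BPA liver. Acot3 was at 31, 13.3, 38.7 and 42.4 CPM, 2.34-fold (1.96 to 2.80) lower with BPA than in control and 3.20-fold (2.69 to 3.82) higher in the combined liver than with BPA. Acot4 was at 28.7, 12.9, 24.2 and 24.0 CPM, 2.23-fold (1.86 to 2.68) lower with BPA and 1.86-fold (1.54 to 2.27) higher in the combined liver than with BPA. They were the only 2 of the 32 members at least 2-fold apart between the BPA and control livers. Decr2, the peroxisomal 2,4-dienoyl-CoA reductase, had a similar low with BPA, at 117, 69.6, 96.1 and 86.8 CPM, 1.68-fold (1.55 to 1.82) below control.

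Pex11a, a membrane protein that promotes division of peroxisomes, was higher in each liver given 1 agent, at 94.7, 147, 142 and 106 CPM. It stood 1.56-fold (1.45 to 1.67) above control with BPA, 1.5-fold (1.40 to 1.61) above control with KRG, and 1.11-fold (1.03 to 1.20) above control in the combined liver. The remaining peroxisomal members lay closer together. Crot, which passes medium chains to carnitine, was at 121, 141, 100.2 and 142 CPM, and Eci2, an enoyl-CoA isomerase, at 134, 132, 161 and 129 CPM. Hsd17b4, the D-bifunctional protein, ran from 68.9 to 80.0 CPM, the narrowest range of the arm.

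Of the mitochondrial arm, 0 of 14 members that passed the filter were 2-fold apart in any of the 5 comparisons. Of all genes, 1.04% to 3.06% were past 2-fold in a given direction of 1 comparison, so 0 of 14 lies near that share. The share of all genes past 2-fold in any of the 5 was not counted. Acadm, the medium-chain acyl-CoA dehydrogenase, had the widest range, at 173, 97.7, 166 and 177 CPM. Its BPA liver alone was low, 1.77-fold (1.65 to 1.89) below control and 1.81-fold (1.69 to 1.94) below the combined liver. Etfdh, which passes electrons from these dehydrogenases to the respiratory chain, was likewise lowest with BPA, at 47.4, 29.9, 40.2 and 39.4 CPM, 1.59-fold (1.40 to 1.80) below control. Hadh, the medium- and short-chain 3-hydroxyacyl-CoA dehydrogenase, was at 503, 405, 525 and 551 CPM, also lowest with BPA.

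The 3 other acyl-CoA dehydrogenases among the members did not share this low. Acadvl, for very long chains, was at 316, 330, 319 and 322 CPM, the narrowest range of all 32 members at 0.06 on the log2 scale. Acadl, for long chains, was at 273, 263, 244 and 240 CPM, and Acads, for short chains, at 626, 718, 620 and 691 CPM. The ratio of Acadvl to Acadm was 1.83, 3.38, 1.91 and 1.82, so that the BPA liver stood apart from 3 that nearly coincided. Outside the members, and picked after their values were seen, Acad9 (10.4, 5.17, 11.1 and 13.3 CPM) and Acad11 (66.8, 29.3, 50.8 and 45.9 CPM) of the same enzyme family were lowest with BPA as Acadm was. The BPA liver was also the lowest for 39% of all genes. Others of the family had other orders. Acadsb (60.3, 77.3, 66.8 and 74.1 CPM) was highest with BPA. Acad8 (86.7, 86.3, 81.3 and 83.3 CPM) was lowest with KRG, and Acad10 (13.5, 12.2, 11.7 and 10.3 CPM) in the combined liver.

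The carnitine shuttle differed little between livers. Cpt1a, the outer membrane carnitine palmitoyltransferase that sets the rate of entry, was at 119, 105, 124 and 86.5 CPM, lowest in the combined liver by 1.37-fold (1.27 to 1.48) against control and 1.44-fold (1.33 to 1.55) against KRG. Cpt2, its inner membrane partner, was at 127, 131, 108 and 118 CPM, and Slc25a20 at 66.0, 67.1, 61.3 and 58.3 CPM. Among the enzymes of the spiral itself, the trifunctional protein subunits Hadha (258, 284, 244 and 218 CPM) and Hadhb (51.1, 45.7, 51.8 and 50.6 CPM) kept a ratio between 4.30 and 6.20. They lie head to head on chromosome 5. Acaa2, the thiolase, was at 680, 743, 773 and 658 CPM, Decr1, the dienoyl-CoA reductase, at 271, 279, 299 and 225 CPM, and Eci1, the enoyl-CoA isomerase, at 54.6, 59.2, 74.2 and 51.1 CPM. Each of these 3 was highest with KRG and lowest in the combined liver. Acot2, the mitochondrial thioesterase, stayed under the filter at 2.83 to 3.73 CPM.

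Ppara itself hardly differed, at 247, 260, 255 and 252 CPM, a range of 0.07 on the log2 scale. Acsl1, which activates fatty acids with coenzyme A, was at 614, 574, 597 and 572 CPM, and Plin2, a coat protein of lipid droplets, at 196, 227, 178 and 193 CPM. Fabp1 was at 7123, 4331, 5853 and 3817 CPM. Both livers given BPA lay below both that were not, by 1.64-fold (1.63 to 1.66) for BPA against control and 1.53-fold (1.52 to 1.55) for the combined liver against KRG. Slc22a5, a carnitine importer, lay between 3.47 and 4.87 CPM, and its transcript end shares 74.1% of windows with Slc22a21.

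Acot1, the cytosolic acyl-CoA thioesterase, was at 78.2, 56.7, 135 and 26.3 CPM. KRG without BPA was 1.73-fold (1.61 to 1.86) higher than control, and the combined liver was the lowest of the 4. It was 5.13-fold (4.56 to 5.79) lower than with KRG, 2.97-fold (2.62 to 3.37) lower than control and 2.15-fold (1.88 to 2.46) lower than with BPA. Acot1, Acot4 and Acot3 lie side by side on chromosome 12 (mm10 chr12:84009490-84018371, chr12:84038379-84048601 and chr12:84052144-84060402, all on the plus strand), yet their levels had different orders. The ratio of Acot1 to Acot3 was 2.52, 4.27, 3.49 and 0.621, so that Acot1 was above Acot3 in 3 livers and below it in the combined one. Of the windows at their transcript ends, Acot1 and Acot3 shared 0 and Acot4 shared 1.11% with other transcripts. In the uterus Acot1 was at 71.2, 121, 45.03 and 96.2 CPM, where Acot3 reached at most 1.00 CPM.

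**Figure D2:**
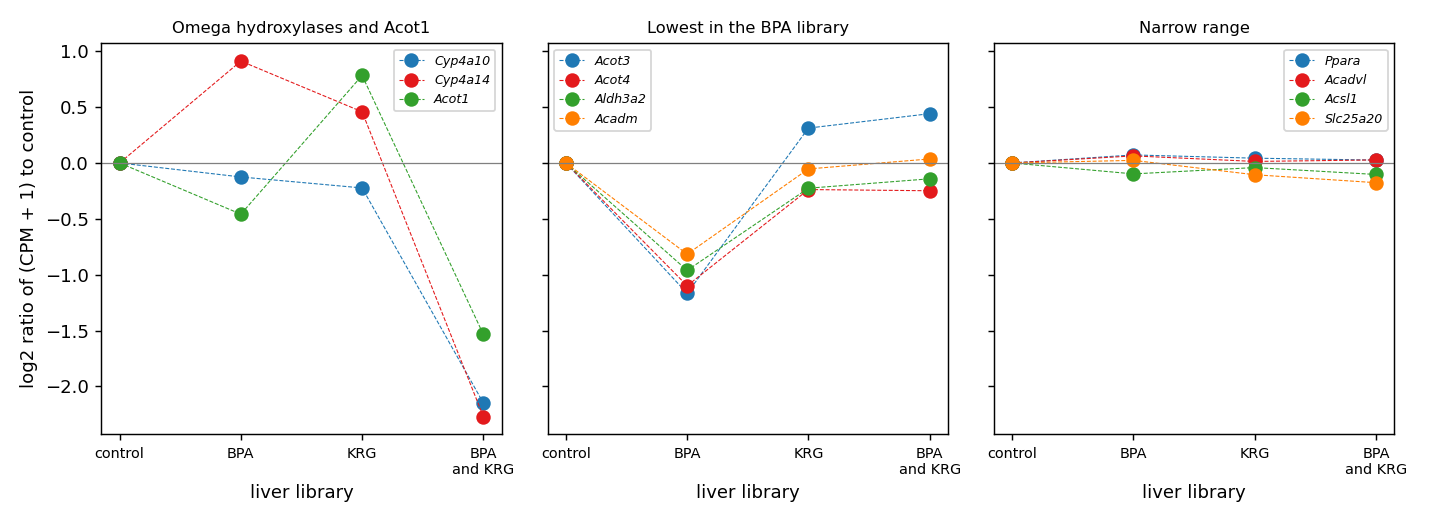
Log2 ratio of CPM plus 1 to the control liver for 3 sets of members, 1 point per liver library (dashed lines only join points of a gene). Cyp4a14, Cyp4a10 and Acot1 are lowest in the combined liver, Acot3, Acot4, Aldh3a2 and Acadm are lowest in the BPA liver, and Ppara, Acadvl, Acsl1 and Slc25a20 stay near 0 throughout.

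Counts of members at least 2-fold apart were set beside those of all genes. With BPA against control, 0 of the 32 members were at least 2-fold higher, where 1.22% of 6709 genes were, and 2 were lower, where 3.06% were. With KRG against control, 0 were higher and 0 were lower, where 1.04% and 1.3% of genes were. In the combined liver against BPA, 1 member (Acot3) was higher, where 2.36% of genes were, and 3 (Cyp4a10, Cyp4a14 and Acot1) were lower, where 1.33% were. The same 3 genes were lower in the combined liver against KRG, where 1.22% of genes were lower and 1.57% higher, and against control, where 1.4% were lower and 1.04% higher, with 0 members higher in either. Without the filter Cyp4a12a adds 1 higher gene with BPA and 1 lower gene in each comparison of the combined liver.

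By arm, medians of the log2 ratio in the combined liver against BPA were -2.02 for omega, -0.08 for peroxisomal, -0.14 for mitochondrial and -0.18 for the remaining genes, and 0.12 for all genes. In that comparison 23 of the 32 members lay below 0. With the trimmed mean of M values (TMM) in place of column totals, the median of all genes was 0.01 and that of the mitochondrial arm -0.26, so part of any single ratio here depends on the scaling. Splits of genes 2-fold apart also moved, from 82 higher and 205 lower to 100 and 158 for BPA against control, and from 158 and 89 to 108 and 109 for the combined liver against BPA. With KRG against control the arm medians were -0.22, -0.16, -0.00 and -0.04, beside -0.05 for all genes. With BPA against control they were -0.13, 0.08, 0.03 and -0.10, beside -0.08. The spread between the highest and the lowest liver was wider than that of all genes (median 0.41 on the log2 scale) in the omega arm (2.15) and the peroxisomal arm (0.63), and narrower in the mitochondrial arm (0.33) and the remaining set (0.36).

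**Figure D3:**
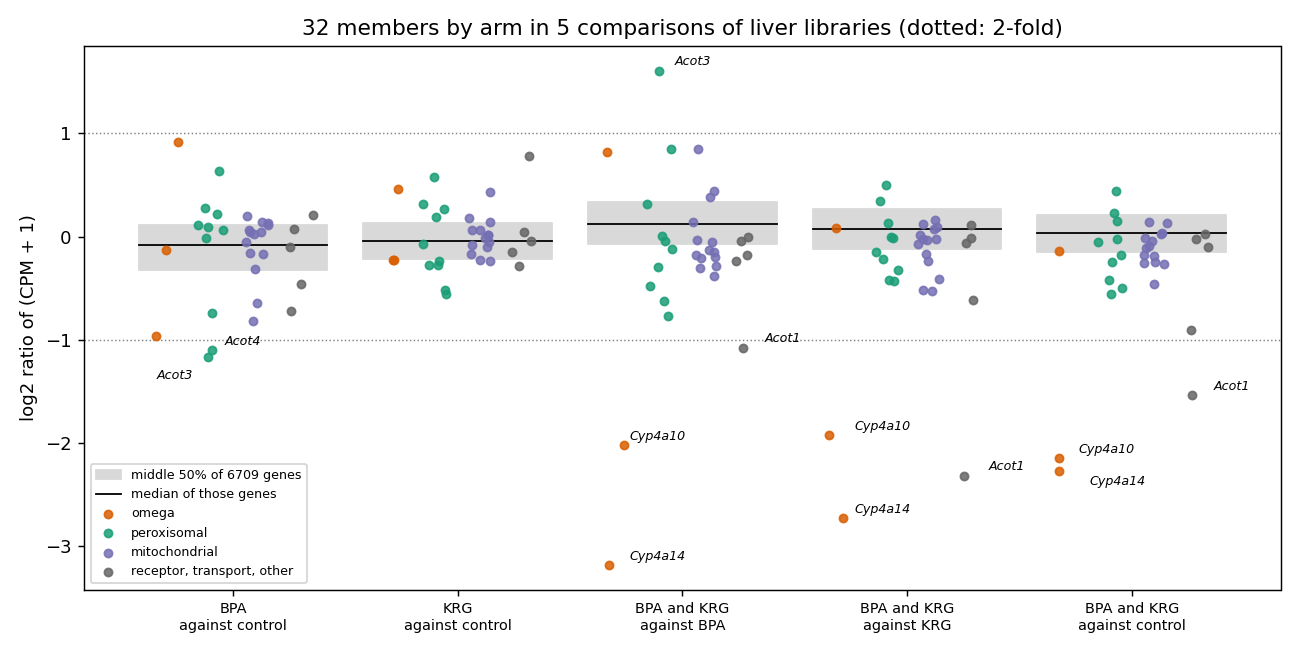
Log2 ratios of CPM plus 1 of the 32 members, coloured by arm, in 5 comparisons of liver libraries that share libraries. The grey box is the middle 50% of 6709 genes, the black line their median, and dotted lines mark 2-fold. Mitochondrial genes stay between the dotted lines throughout, as most of the 6709 genes do in each comparison. Acadm lies outside the box for BPA against control (-0.82) and for the combined liver against BPA (0.85). Cyp4a10, Cyp4a14 and Acot1 lie below the lower dotted line in each comparison of the combined liver.

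The combined liver was the lowest of the 4 for 16 of the 32 members (50%), against 14% of all genes, and the highest for 4 (12.5% against 35.5%). With TMM scaling it was the lowest for 18 members (56.2%), against 22.5% of all genes. The BPA liver was the highest for 12 members (37.5% against 16.9%) and the lowest for 8 (25% against 39%). With TMM scaling these were 14 members (43.8% against 26.7%) and 8 (25% against 29.9%), and the combined liver was the highest for 2 (6.25% against 23.2%). These shares are descriptions of 4 libraries. By arm, the combined liver was lowest for 2 of 3 omega, 4 of 10 peroxisomal, 7 of 14 mitochondrial and 3 of 5 other members.

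Libraries that share an agent can also be read as pairs, 2 with it and 2 without. Both livers with BPA lay above both without it for 3 of the 32 members (Crot, Acads and Acadvl), where 18.5% of genes did, and below for 9, where 18.0% did. The 9 included Fabp1, Acot4, Acot1, Decr2, Etfdh and Cpt1a. Both livers with KRG lay above both without it for 2 members (Acot3 and Hadh), where 17.1% of genes did, and below for 9, where 10.6% did. Those 9 were Cyp4a10, Acaa1a, Acaa1b, Crat, Cpt2, Slc25a20, Acadl, Hadha and Plin2. With TMM scaling the counts in this order were 2, 8, 2 and 9, where 18.6%, 20.1%, 14.3% and 13.7% of genes did so. Most of these differences were small. Acaa1a and Crat had the widest gap of the 9 between KRG and control, each 1.47-fold lower.

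A model with additive terms for BPA and for KRG, fitted to the 4 livers, leaves 1 residual degree of freedom and counts any interaction as error. By edgeR's quasi-likelihood test with Benjamini-Hochberg adjustment over 6709 genes, 0 members passed an adjusted p of 0.05 for BPA, as did 0.0% of all genes, with 1 member and 362 genes at an unadjusted p under 0.05. That member was Fabp1, with a log2 difference of -0.67 (SE 0.233) and an edgeR adjusted p of 0.845. For KRG, 0 members passed and 0.0% of genes did, with 2 members (Acot3, 0.95, SE 0.336, and Acaa1a, -0.62, SE 0.168, both with an edgeR adjusted p of 0.999) and 220 genes at an unadjusted p under 0.05. DESeq2 called 26 genes for BPA and 49 for KRG, 0 of them members in either, with 3 members at an unadjusted p under 0.05 for each agent beside 201 genes for BPA and 163 for KRG.

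Of the 72 other genes of these pathways and of PPAR-alpha biology, 56 passed the filter. Ech1, a dienoyl-CoA isomerase, was at 87.0, 105, 87.3 and 90.8 CPM. Angptl4, a secreted inhibitor of lipoprotein lipase, was at 115, 194, 193 and 75.3 CPM. The combined liver was its lowest and both livers given 1 agent stood above control, the same order as that of Cyp4a14.

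Between the combined and BPA livers, 5 of these 56 genes were at least 2-fold higher and 2 lower, where 2.36% and 1.33% of all genes were. For BPA against control the counts were 0 and 6, beside 1.22% and 3.06% of all genes, and for KRG against control 1 and 1, beside 1.04% and 1.3%. For the combined liver they were 3 and 2 against KRG, beside 1.57% and 1.22%, and 0 and 3 against control, beside 1.04% and 1.4%. The 6 with the largest log2 ratio beside Angptl4 (-1.35) were Abcd2 (2.03), Nudt19 (1.71), Acsl3 (1.32), Hacl1 (1.22), Acad9 (1.22) and Lpl (-1.11). Abcd2, a peroxisomal importer of very long chains, was at 24.9, 7.40, 14.4 and 33.2 CPM. Hacl1, which shortens branched chains in peroxisomes, was at 185, 118, 133 and 277 CPM, and Nudt19, a peroxisomal coenzyme A hydrolase, at 38.8, 17.5, 41.0 and 59.6 CPM. These 3 peroxisomal genes were lowest with BPA and highest in the combined liver, as Acot3 was, the reverse of Cyp4a14 in these 2 livers. They were chosen by their ratio between these 2 livers, so this likeness carries no support for a shared pattern. Acsl3 and Acad9 of the same choice also had their lowest and highest values in these livers. Of the peroxisomal genes outside this choice, Phyh, Acox3 and Abcd3 were lowest in the combined liver, and Acox2 and Pecr were highest in it.

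Markers of other cells differed between the same livers. The sums of the 10 skeletal muscle markers were 191, 4.55, 528 and 2.67 CPM, with 5 at 0 in the combined liver. The 10 acinar pancreas markers summed to 1.57, 1035, 7.26 and 5.25 CPM, high in the BPA liver where Acot3, Acot4, Acadm and Aldh3a2 were low and Cyp4a12a and Cyp4a14 were high. Erythroid markers (8) summed to 3765, 7364, 5417 and 1796 CPM, lowest in the combined liver as Cyp4a10, Cyp4a14 and Acot1 were. Macrophage markers (10) summed to 574, 433, 605 and 811 CPM and neutrophil markers (6) to 12.0, 22.05, 50.1 and 143 CPM, both highest in the combined liver. The 9 adipocyte markers summed to 55.5, 54.1, 82.6 and 68.8 CPM, with Plin1 at 0 in the BPA and combined livers, and the 7 small intestine markers to 161, 302, 239 and 225 CPM, with Sis and Cdx2 at 0 in all 4. The part of these cells in the members' differences was not tested.

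PPAR-alpha targets also follow feeding and time of day. Of 16 fasting and refeeding genes, 14 passed the filter, with medians of -0.14 for BPA against control, -0.17 for KRG against control and -0.17, -0.30 and -0.21 for the combined liver against BPA, KRG and control. The list holds genes of both states, so opposite shifts can cancel in these medians. Those at least 2-fold higher and lower numbered 0 and 1 for BPA against control and 1 and 1 for KRG against control. For the combined liver they numbered 1 and 2 against BPA, 3 and 1 against KRG and 1 and 0 against control. Of all genes, 1.04% to 3.06% were past 2-fold in a given direction of these comparisons. Pck1, the gluconeogenic enzyme that fasting raises, was at 2050, 1133, 2236 and 1206 CPM. Other genes that fasting raises had other orders, Igfbp1 at 69.1, 136, 51.7 and 185 CPM and G6pc at 44.5, 68.5, 71.7 and 30.4 CPM. Srebf1, which feeding raises, was at 74.4, 18.5, 46.0 and 96.4 CPM. Of 16 clock genes, 10 passed, 0 of them 2-fold apart in any comparison. The 10 ribosomal protein genes, kept as a measure of library quality, summed to 3783, 3424, 3976 and 3808 CPM. The labels state free access to food and give no time of collection, and the part of either in these values was not tested.

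Between tissues each treatment gives a liver and a uterus library, so the difference could be tested over 4 treatments. By edgeR's quasi-likelihood test with treatment as a block, 30 of the 34 members with a mean of at least 10 CPM in either tissue were higher in liver, where 33.4% of 9941 genes were, and 2 were lower, where 39.7% were. DESeq2 gave 30 and 2 as well. Cyp4a14, Cyp4a10, Acot3, Acot4 and Etfdh passed the filter through liver alone (uterus means of 9.72, 1.55, 0.381, 0.957 and 8.86 CPM). Vnn1 and Acot2 passed it through uterus alone (liver means of 1.64 and 3.35 CPM). A member that passed through 1 tissue alone was bound to lie higher there, so its direction carries no support. With column totals in place of TMM the counts were 27 and 3 members, and the split of all genes moved from 3325 higher and 3943 lower to 1846 and 6248. Leaving out each treatment in turn kept 30 members higher in liver every time.

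The widest tissue differences among the members were those of Fabp1 (log2 difference 9.99, SE 2.09, edgeR adjusted p = 0.00624), Cyp4a14 (9.07, SE 1.54, 0.00265), Cyp4a10 (7.63, SE 1.01, 0.000971) and Acot3 (7.31, SE 0.71, 0.00031). After Acot4 (5.55, SE 0.453) and Acaa1b (5.13, SE 0.614) came Ppara at 4.96 (SE 0.272, edgeR adjusted p = 6.59e-05), with 247 to 260 CPM in liver and 10.01 to 22.5 CPM in uterus. Mitochondrial members other than Acot2 differed less, from 0.97 for Eci1 (SE 0.138, edgeR adjusted p = 0.00132) to 3.54 for Acaa2 (SE 0.204, edgeR adjusted p = 7.3e-05). Eci1 had mean CPM of 59.8 in liver and 54.1 in uterus, so its difference depends on TMM scaling. Acaa1a (3.01), Hsd17b4 (2.87), Decr2 (2.59), Crot (2.34), Pex11a (2.31) and Eci2 (2.25) of the peroxisomal arm lay within the same range. Of the pathway's other genes, 48 of 61 tested were higher in liver and 7 lower.

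Vnn1 and Acot2 went the other way, by -1.86 (SE 0.373, edgeR adjusted p = 0.0052) and -0.72 (SE 0.235, edgeR adjusted p = 0.0326). Vnn1 was at 19.3, 17.1, 7.70 and 4.39 CPM in the 4 uteri and Acot2 at 11.7, 12.2, 7.24 and 8.99 CPM, all above the highest liver value of the gene. Without the control pair of libraries both were under the filter and 0 members were lower in liver. Acot2 was called in 1 of the 2 fits that left out a treatment and still tested it, and Vnn1 in 3 of 3. Crat (-0.33, SE 0.277, edgeR adjusted p = 0.323) and Acot1 (0.51, SE 0.583, edgeR adjusted p = 0.455) were not called in either direction.

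**Figure D4:**
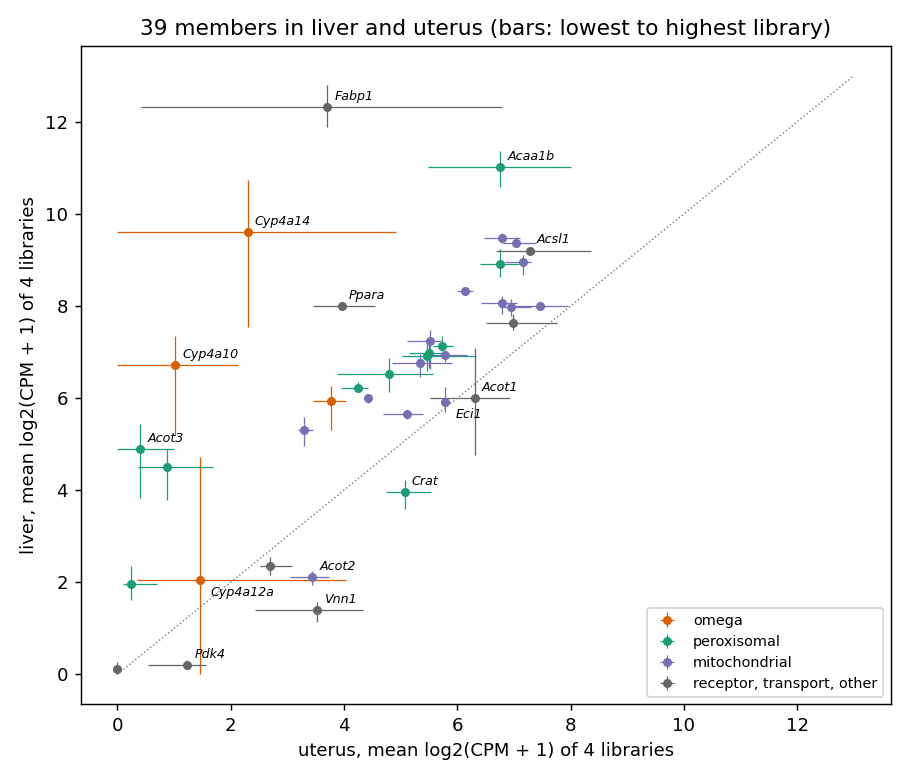
Mean log2(CPM + 1) of the 39 members over 4 liver libraries (vertical) and 4 uterus libraries (horizontal), coloured by arm, with bars from the lowest to the highest library and the dotted line at equal levels. Most members lie above the line, Fabp1 and Cyp4a14 farthest from it, while Vnn1, Acot2, Crat, Acot1, Slc22a5 and Pdk4 lie below it.

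Among the uterus libraries, the members most typical of liver moved with hepatocyte markers. In the order control, BPA, KRG and combined, the hepatocyte list summed to 870, 84.5, 1797 and 69.1 CPM in uterus, which is 1.52%, 0.171%, 3.28% and 0.123% of its sum in the matched liver. Fabp1 was at 95.1, 1.02, 109 and 0.338 CPM. Cyp4a14 was at 8.52, 1.02, 29.3 and 0 CPM, and the values of Cyp4a10 were 3.36, 0, 2.85 and 0 CPM. These uteri with the high hepatocyte sums are the 2 without BPA, so that BPA and the hepatocyte signal cannot be told apart for these 3 genes. Cyp4a12a, at 15.5, 0.583, 0.693 and 0.270 CPM, was high in the control uterus alone. The 7 proximal tubule markers summed to 35.3, 16.03, 14.2 and 15.4 CPM in uterus, also highest in the control uterus, and 4, 3, 4 and 3 of them were at 0. Slc34a1 and Slc22a12 were at 0 in the control uterus, and Kap was at 0.523 CPM there and 0.693 CPM in the KRG uterus. The part of kidney RNA in the uterine values of Cyp4a12a was not tested. Acsl1 was at 132, 102, 330 and 127 CPM, highest in the KRG uterus, where the adipocyte list was also highest at 13053 CPM against 5203 to 5693 CPM in the others and Adipoq stood at 1459 CPM against 298 to 426 CPM.

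**Figure D5:**
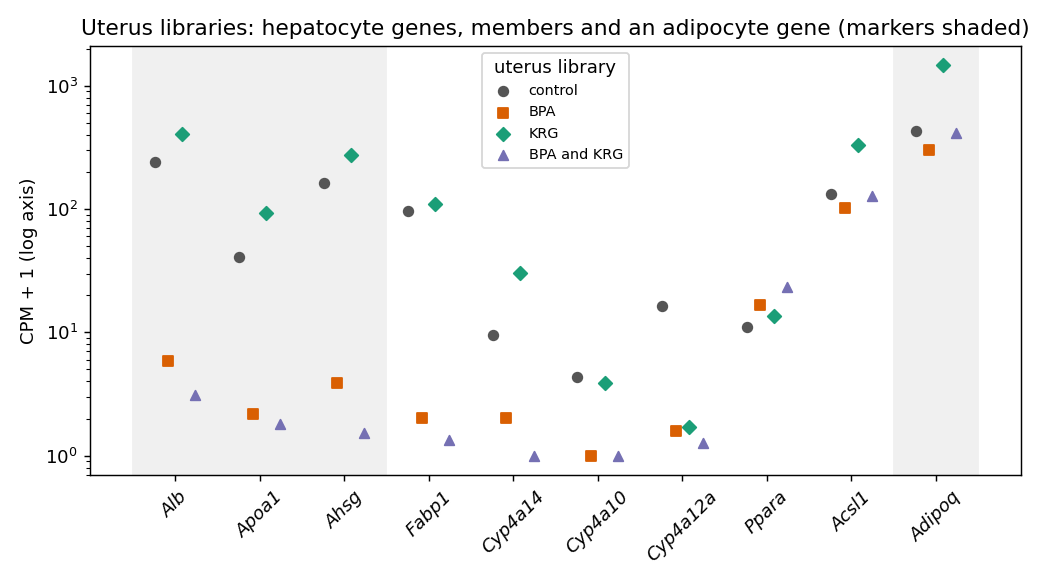
CPM plus 1 (log axis) in the 4 uterus libraries for the hepatocyte genes Alb, Apoa1 and Ahsg, 6 members and the adipocyte gene Adipoq, with the marker genes shaded. Fabp1 and Cyp4a14 have the order of the hepatocyte genes, high in the control and KRG uteri, whereas Ppara does not and Acsl1 is high where Adipoq is high.

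Other members had their high values in the uteri given BPA, at a share close to that of all genes, as counted below. The 10 skeletal muscle markers summed to 118, 226, 96.1 and 1787 CPM in uterus. Acadl, Cpt1a, Decr2, Acaa1a and Hadha had the same order of libraries, and the part of muscle in these values was not tested. Acaa1b was at 44.0, 128, 92.8 and 256 CPM, Acadl at 135, 229, 126 and 247 CPM, Decr2 at 17.9, 44.8, 13.6 and 46.6 CPM and Cpt1a at 34.1, 44.8, 27.6 and 58.9 CPM. Of the 29 members with a mean of at least 10 CPM in uterus, both BPA uteri lay above both others for 9, where 28.1% of 9198 genes did, and below for 3 (Pex11a, Fabp1 and Acsl1), where 17.7% did. Both KRG uteri lay above both others for 7 members (Crat, Cpt2, Acadm, Acads, Acadvl, Eci1 and Plin2), where 8.16% of genes did, and below for 5, where 22.1% did. Decr2, Cpt1a, Hadhb and Acot1 thus had both BPA libraries above the others in uterus and below them in liver. The share of all genes with these opposite orders was not counted, and this difference between tissues was not tested.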

How the data were processed

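The deposited files hold raw counts per gene, made by the authors as 1 column of whole numbers for each of the 8 libraries. Per the labels' protocols, 500 ng of total RNA entered each QuantSeq library. Bowtie2, edgeR and the build mm10 are listed in the submitters' processing notes with no version. How reads were assigned to genes, whether strand was used and what was done with multiply mapped reads is not stated in the sources used here.

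The members and gene lists were chosen with earlier results of these data known. All 39 members are accounted for. Of the 72 other pathway genes, 6 were chosen by name, 2 of which are not reported here, and 6 by the largest absolute log2 ratio between the combined and BPA livers. Other lists hold markers of hepatocytes, skeletal muscle, acinar pancreas, erythroid cells, macrophages, neutrophils, adipocytes, kidney and small intestine, and genes of the clock, of fasting and of ribosomes. CPM used column totals (12372073 to 15290950 counts) over 23282 rows, of which 44 repeat a symbol, none a member. Ratios used a pseudocount of 1 CPM and genes averaging at least 10 CPM in the 4 livers. Tissues were compared with edgeR 4.0.16 in R 4.3.3 with treatment as a block, and livers with an additive model, where labels name no separate animals, so that p-values measure only the spread between these libraries. Both fits were tested on simulated counts. SEs are the log2 difference divided by the square root of F. Alternatives were DESeq2 1.42.0, TMM or DESeq2 size factors, totals without Rn45s, pseudocounts of 0.25 and 5 CPM, a mean of at least 1 CPM or no filter, no block, and each treatment left out. Coordinates and transcript ends are from GENCODE M21 on the same build as mm10, and promoter sequences from RefSeq on GRCm38.p6.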

Additional observations from a re-analysis of the deposited data

Results flagged for a closer look

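For 3 of the 39 members the ratio of 1 agent went past 1.5-fold in opposite directions with and without the other agent. The share of all genes that meet this rule was not counted, so the number is no result about the members. Cyp4a12a, 1 of the 3, was under the filter of 10 CPM. None of these differences was tested, since each ratio compares 1 library with 1 other. Cyp4a12a had a log2 ratio for BPA of 3.09 without KRG and -1.88 with it, the latter against 0 counts in the combined liver. Cyp4a14 had a log2 ratio for BPA of 0.91 without KRG and -2.73 with it. Acot1 had a log2 ratio for KRG of 0.78 without BPA and -1.08 with it. In all 3 genes the combined liver was the lowest of the 4, and all of these ratios with the other agent rest on that library.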

How the results depend on the processing

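Over 13 members, 455 log2 ratios were recomputed under the alternatives, and 84 belonged to ratios at least 2-fold apart. Of these, 3 came under 2-fold, all with a pseudocount of 5 CPM: Acot3 (-0.98) and Acot4 (-0.92) for BPA against control and Acot1 (-0.98) for the combined liver against BPA. With that pseudocount the number of members at least 2-fold apart for BPA against control was 0 in place of 2, since a larger pseudocount shrinks the ratios of low genes. Cyp4a14 reached 1.00 for BPA against control with DESeq2 size factors. None of the 84 changed sign. Counts of members for the other comparisons stayed within 1.5 times. Members called between tissues numbered 30 to 32 with 1 treatment left out, and without the block 32 were called. Leaving out a liver from the additive model leaves no residual degrees of freedom and was not run. No paired analysis beyond the treatment block was possible because the labels give no replicate numbers. Depth limits Fgf21 and Pdk4, with at most 3 counts in any liver, and 1 library per group limits every comparison between treatments.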
